A study of Mus musculus with 8 samples.

Results

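The end state of 6 days of doxycycline (Dox) was described in AML410, a mouse acute myeloid leukaemia, by setting the 2 libraries of day 6 against the 2 libraries of untreated leukaemia, 4 of the 8 libraries of the series, chosen by their titles. The leukaemia lacks p53 (p53-/-), has a monosomal karyotype, holds a short hairpin RNA that silences PU.1 and is linked to green fluorescent protein (GFP), and grew in the bone marrow of recipient mice of the C57BL/6 strain. All groups share this genotype, so the untreated group is leukaemia with the hairpin on, not normal marrow. Untreated cells were sorted for high GFP and day 6 cells for low GFP, after Dox had switched the hairpin off and let endogenous PU.1 return. The gate changed with the day on Dox, so the effects of time and of the gate cannot be told apart. The titles call the 2 libraries of a group technical replicates, whereas the design text speaks of duplicate mice, so the p-values rest on nothing but the variation among these samples, which could be technical. All of it is 1 leukaemia, and other leukaemias were not analysed here.

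PU.1, the product of Spi1, is a transcription factor of the ETS family that binds purine-rich DNA around a GGAA core and switches on genes of macrophages, neutrophils and B cells. Its level matters: early progenitors hold little, myeloid maturation needs more, and lowering it in mice can give rise to leukaemia. Myeloid maturation is known to bring granules, phagocytic receptors and the superoxide-making oxidase, and to wind down the growth programme of progenitors, of which ribosome production is a large part.

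The untreated libraries held 10253525 and 10110580 counts and the day 6 libraries 10174785 and 10905390. Levels are CPM, the share of a library's counts scaled to a fixed total, after scaling by the trimmed mean of M values (TMM), and levels of different genes are compared only per kilobase (kb) of gene length. Of 12330 genes tested, 3942 (32.0%) were called higher and 3897 (31.6%) lower at day 6, 7839 (63.6%) in all (edgeR quasi-likelihood test, Benjamini-Hochberg adjusted p under 0.05). The change exceeded 2-fold for 1689 of the higher and 1481 of the lower genes, and 8-fold for 429 and 263. The median log2 fold change of all tested genes was −0.04. It was −0.47 when libraries were scaled by total counts, with 2078 genes higher and 6647 lower. The 10 most abundant genes took 9.62% and 10.5% of the counts at day 6 against 5.96% and 5.51% in untreated cells. Changes are given relative to the TMM scale. For day 6 against untreated cells, lists whose direction turns under scaling by total counts are named as such. "Rose", "fell", "higher" and "lower" below refer to calls of the test, and a share of members near 32.0% higher or 31.6% lower is the share over all genes.

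Spi1 itself stood at 8.34 and 12.9 CPM in the untreated libraries and at 217 and 229 CPM at day 6. Both day 6 libraries lay far above both untreated ones, with a log2 fold change of Spi1 of 4.39 (SE 0.14; adjusted p by edgeR = 8.84e-10). Counts of Trp53, the p53 gene, were present in all 4 libraries (65.0 and 62.7, then 42.8 and 41.1 CPM), and counts over a whole gene do not check its deletion.

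Leading genes were ranked by fitted fold change among called genes of at least moderate level (average log2 CPM of at least 3). Only genes whose groups did not overlap were taken, and symbols of predicted or unnamed genes were left out. By this rule the largest rises were in Asprv1, Upb1 and Clec4b2. Asprv1, an aspartic protease gene known from skin, had 3 counts in the untreated libraries and 1429 at day 6, a ratio of 622 (95% exact counting interval 212 to 3019). Upb1, the last enzyme of pyrimidine breakdown, went from 3 to 1335 counts (ratio 581, 95% interval 198 to 2820). The lectin gene Clec4b2 went from 3 to 676 counts (ratio 294, 95% interval 100 to 1430). These intervals cover counting error only.

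Other leading risers were secreted or signalling proteins. Chil3, a chitinase-like protein of neutrophils and macrophages, stood at 41.6 and 37.3 CPM in untreated cells and at 7202 and 7975 at day 6 (log2 fold change 7.59, SE 0.29; adjusted p by edgeR = 2.42e-09). Its neighbour Chil4 rose from 1.28 and 1.68 to 202 and 227 CPM. Reads of Chil3 and Chil4, like those of the Clec4 lectins, may be shared between near-identical copies. Sh2d1b1, an adaptor of SLAM family receptors, rose from 0.255 and 0.0839 to 38.3 and 42.3 CPM.

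The 10 leading fallers by the same rule included genes known from muscle and connective tissue. Among genes left out for their symbols, 1500009L16Rik had 656 counts in untreated cells and none at day 6. Serpinh1, a collagen chaperone, fell from 994 counts to 2 (ratio 381, 95% interval 105 to 3148), and Tpm2, a muscle tropomyosin, from 540 to 2 (ratio 207, 95% interval 57 to 1712). Heph, a copper oxidase of iron export, stood at 175 and 180 CPM in untreated cells and at 1.46 and 1.73 at day 6 (log2 fold change −6.78, SE 0.17; adjusted p by edgeR = 2.23e-10). Igfbp7, which binds insulin-like growth factors, fell from 149 and 129 to 0.450 and 1.08 CPM. The groups of these leading fallers lay far apart, but the rule had required groups without overlap and ranked genes by fold change.

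Umodl1, Nwd1, Chl1 and Pi15 were also among the leading fallers, with log2 fold changes of −7.08, −6.08, −5.91 and −5.57. Myog, the muscle regulator myogenin, stood at 61.3 and 73.6 CPM in untreated cells and at 0.113 and 0.324 CPM at day 6. Of 16 skeletal muscle genes tested 11 fell and 2 rose, with a median log2 fold change of −5.38 (−4.45 with the 3 genes without counts at day 6 put at their lower bound). Mymk, which fuses muscle cells, had 185 counts in untreated cells and none at day 6. Taking 3 counts in the group as the upper limit of a count of 0, it was at least 47.2-fold lower. Troponin Tnnt2 was at least 38.8-fold lower by the same measure. The summed level of the list moved little, from 1307 and 1171 to 1154 and 1165 CPM, most of it Mef2c, a factor that myeloid cells also express, at means of 1017 and 1108 CPM. Tnni2 and Tnnt1 rose, from 3.55 to 13 and from 4.26 to 9.59 CPM as means of the 2 libraries.

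**Figure D1:**
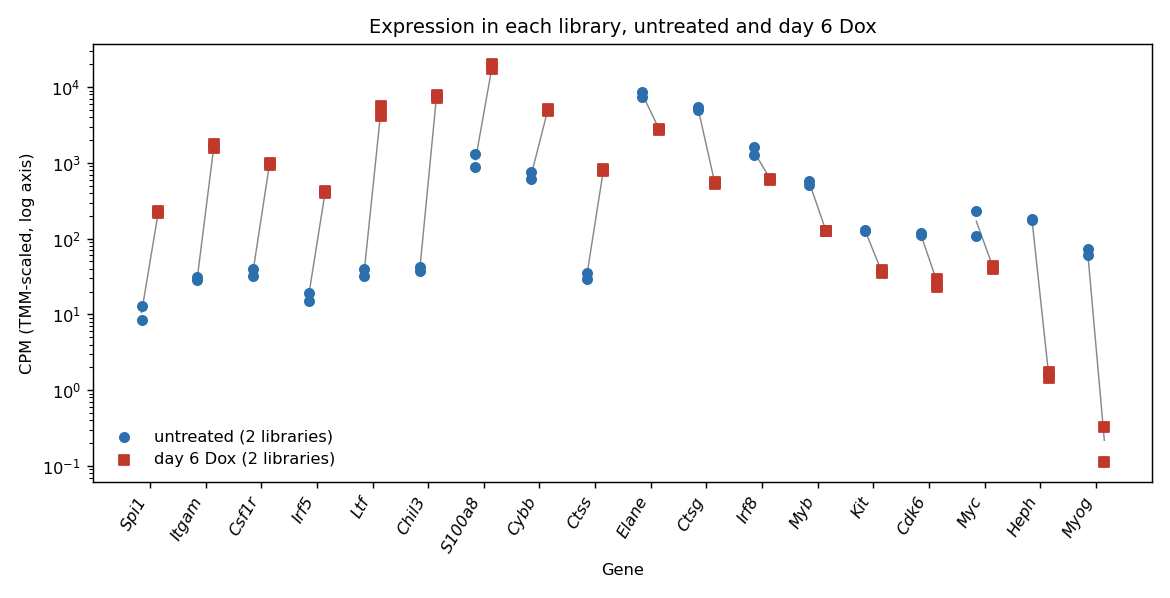
Level of 18 genes in each library, as CPM on a log axis, with blue circles for the 2 untreated libraries, red squares for the 2 day 6 libraries and grey lines joining the group means. Spi1, Itgam, Csf1r, Irf5, Ltf, Chil3, S100a8, Cybb and Ctss lie higher at day 6 in both libraries, and the other 9 genes lie lower in both.

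Genes of myeloid maturation rose nearly as whole lists. Of 16 genes of secondary and tertiary granules, the stores of antimicrobial proteins that neutrophils make late, 15 rose and 1 fell, with a median log2 fold change of 3.85. Of 20 mature neutrophil genes 19 rose (median 3.44), and of 18 monocyte and macrophage genes all 18 rose (median 4.45, or 4.20 with 2 genes at their lower bound). In bulk samples fewer cells of a type and less RNA per cell cannot be told apart, so these counts describe the sorted population. The summed level of the granule list was 6365 and 4690 CPM in untreated cells and 56455 and 66839 CPM at day 6, which is 4.93% and 5.67% of all counts.

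Lactoferrin (Ltf), an iron-binding granule protein, stood at 40.1 and 32.6 CPM in untreated cells and at 4130 and 5588 at day 6. The gelatinase gene Mmp9 stood at 11.8 and 8.97 CPM and then at 393 and 614 (log2 fold change 5.60, SE 0.41; adjusted p by edgeR = 3.50e-07). Chil1, another chitinase-like gene, rose from 1.62 and 1.09 to 149 and 199 CPM. Within this list only Orm1, an acute phase protein, fell, from 45.5 and 35.4 to 19.8 and 21.1 CPM.

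Among mature neutrophil genes, the formyl peptide receptor Fpr1 stood at 0.0851 and 0.503 CPM before and at 22.6 and 38.3 CPM after 6 days. Ly6g, the surface antigen used to mark mouse neutrophils, rose from 0.937 and 1.51 to 69.5 and 97.8 CPM. Stfa2l1, a stefin, had 3 counts and then 367 (ratio 160, 95% interval 54.2 to 778). The exception was Hdc, which makes histamine and fell from 230 and 215 to 115 and 133 CPM.

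On the monocyte side, Ms4a6c, a membrane protein of monocytes, rose from 5.96 and 6.04 to 397 and 371 CPM (log2 fold change 6.00, SE 0.14; adjusted p by edgeR = 1.66e-10). Clec4n, the lectin dectin-2, had no counts in untreated cells and 109 at day 6, at least 47.4-fold higher. Ms4a7, also without counts before, was at least 13.1-fold higher. The scavenger receptor gene Msr1 went from 2 to 139 counts (ratio 90.7, 95% interval 24.6 to 757).

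Primary granule genes, which promyelocytes make before the later granules, went the other way in part: of 9 tested 5 fell and 3 rose. Cathepsin G (Ctsg) stood at 5419 and 5038 CPM in untreated cells and at 562 and 527 at day 6 (log2 fold change −3.26, SE 0.11; adjusted p by edgeR = 9.74e-10). Neutrophil elastase (Elane), among the most abundant transcripts of the untreated leukaemia, fell from 8562 and 7471 to 2829 and 2751 CPM. Srgn, the proteoglycan that packs granule proteases, fell from 2639 and 2320 to 473 and 469 CPM. Against them rose Ctsc, the protease that activates the granule proteases, from 218 and 190 to 1022 and 1025 CPM, and Prss57 from 7.92 and 5.11 to 36.1 and 39.8 CPM.

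Markers of other cells were counted beside these changes. Of 7 erythroid genes 5 rose and none fell, with a summed level of 25.3 and 11.2 CPM in untreated cells and 48.3 and 72.9 CPM at day 6, most of it globin. Of 13 B cell genes 2 rose and 1 fell, or 1 and 3 under scaling by total counts and none and 1 without untreated replicate 2 (sums of 99.6 and 51.3, then 62.9 and 76.7 CPM). Of 4 T and natural killer cell genes tested 1 rose and 1 fell (list sums of 140 and 116, then 109 and 97.7 CPM). Of 10 mast cell, basophil and eosinophil genes 4 rose and 1, Mcpt8, fell (log2 fold change −3.13). Their sum nonetheless went down, from 80.3 and 72.2 to 44.6 and 43.3 CPM. Of 7 dendritic cell genes tested 4 rose and 1 fell (list sums of 121 and 134, then 191 and 178 CPM). Of 5 megakaryocyte genes 3 rose and 1 fell, or 1 and 2 under scaling by total counts, and of 6 stroma and endothelium genes 1 rose and 3 fell. In each list some defining markers were not analysed here, and those tested were mostly a few CPM. The larger sums rested on Nkg7, Mcpt8, Itgb3, Bst2, Tcf4 and Pecam1. These sums do not measure the share of any cell type, and the part of other cells in the results was not tested.

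Of 23 genes described as bound or driven by PU.1 in myeloid cells, 21 rose and 1 fell, with a median log2 fold change of 2.44. Itgam, the CD11b integrin chain, stood at 30.9 and 28.8 CPM in untreated cells and at 1568 and 1785 at day 6 (log2 fold change 5.81, SE 0.14; adjusted p by edgeR = 1.92e-10). Fcgr1, the high-affinity receptor for immunoglobulin G, rose from 4.6 and 3.27 to 136 and 145 CPM, and the endotoxin co-receptor Cd14 from 1.53 and 2.52 to 56.4 and 69.2 CPM. Csf1r, through which macrophage colony-stimulating factor acts, rose from 39.7 and 31.8 to 1008 and 949 CPM. The member that fell was Irf8, a partner of PU.1 in monocyte development, from 1597 and 1259 to 615 and 594 CPM.

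The promoters of 4 of these risers are shown because they hold the letters of a PU.1 box, GAGGAAG on either strand, printed in capitals (as CTTCCTC where the box lies on the other strand). They come from RefSeq on GRCm38.p6, the build of the counts, and run 5′ to 3′ on the gene's strand from 150 bases before the annotated start to 30 bases after it. Itgam lies on the plus strand (chr7:128062490-128062669), Fcgr1 on the minus strand (chr3:96293940-96294119), Ctss, the protease cathepsin S, on the plus strand (chr3:95526636-95526815) and Fcgr3, a low-affinity immunoglobulin receptor, on the minus strand (chr1:171059374-171059553).
Itgam: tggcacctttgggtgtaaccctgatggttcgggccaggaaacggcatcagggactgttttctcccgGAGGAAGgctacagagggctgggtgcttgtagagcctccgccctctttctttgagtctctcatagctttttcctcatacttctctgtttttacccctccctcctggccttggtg
Fcgr1: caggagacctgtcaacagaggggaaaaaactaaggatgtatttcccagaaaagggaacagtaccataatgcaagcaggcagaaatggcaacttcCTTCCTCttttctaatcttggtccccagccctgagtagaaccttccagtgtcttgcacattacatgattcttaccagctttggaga
Ctss: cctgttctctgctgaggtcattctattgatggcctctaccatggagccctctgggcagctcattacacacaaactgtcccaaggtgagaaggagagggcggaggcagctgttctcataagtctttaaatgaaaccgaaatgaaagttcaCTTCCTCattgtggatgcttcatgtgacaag
Fcgr3: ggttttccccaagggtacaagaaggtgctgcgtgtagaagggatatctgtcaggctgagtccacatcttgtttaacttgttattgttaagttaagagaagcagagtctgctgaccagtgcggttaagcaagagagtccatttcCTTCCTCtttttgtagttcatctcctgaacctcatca

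Relative to the annotated start, the first base of the printed box was at −84 in Itgam, −56 in Fcgr1, −1 in Ctss and −7 in Fcgr3. Itgam held a further match, on the other strand, at 31 bases after the start, outside the printed stretch. Of the 21 called PU.1 targets 15 had a promoter in the RefSeq table, and 7 of them held GAGGAAG in the 250 bases before to 50 bases after a start. Over all 9555 tested genes with a promoter, 16.4% held it, against 20.7% of genes called higher and 13.6% of genes called lower. For changes of over 8-fold the shares were 28.6% of genes called higher and 16.9% of genes called lower. The shorter GAGGAA, which the longer letters contain, was held by 30.7% of all, 35.4% of higher and 27.4% of lower genes. It was held by 48.1% of genes higher and 31.1% of genes lower by over 8-fold. These shares describe letters in a window and not binding.

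Of 33 transcription factors of myeloid fate 18 rose and 6 fell (median 0.44). Under scaling by total counts this was 11 and 10. Irf5, an activator of inflammatory macrophage genes, stood at 19.4 and 15 CPM in untreated cells and at 430 and 404 at day 6 (log2 fold change 4.6, SE 0.17; adjusted p by edgeR = 1.64e-09). Klf4, a factor of monocyte differentiation, rose from 15.5 and 17.4 to 204 and 193 CPM, Klf6 from 48.2 and 47.9 to 312 and 315 CPM, and Maf from 2.47 and 1.68 to 15.4 and 14.8 CPM. Among the 6 that fell were Egr1 (51.6 and 57.3, then 12.9 and 13.9 CPM), Cebpa, the factor of the granulocyte and monocyte branch (log2 fold change −1.05), and Gfi1, a repressor in granulocytes (−0.95).

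Of 15 stem and progenitor genes 9 fell and 1 rose (median −0.85). Myb, a factor that keeps progenitors dividing, stood at 508 and 584 CPM in untreated cells and at 126 in both day 6 libraries (log2 fold change −2.12, SE 0.09; adjusted p by edgeR = 6.33e-09). Cdk6, a cell cycle kinase of progenitors, fell from 112 and 117 to 29.5 and 22.7 CPM. Kit, the stem cell factor receptor, fell from 132 and 125 to 34.9 and 38.3 CPM. The member that rose, Erg, was low throughout (0.681 and 0.587, then 3.04 and 3.46 CPM).

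In glucose metabolism the changes included transporters and isoforms of single steps. Of 5 facilitated glucose transporters 3 rose and 1 fell. Slc2a3, a high-affinity transporter, stood at 9.88 and 10.4 CPM in untreated cells and at 161 and 207 at day 6 (log2 fold change 4.18, SE 0.20; adjusted p by edgeR = 9.86e-09). Slc2a6, an intracellular transporter of myeloid cells, rose from 14.5 and 14.3 to 97.7 and 94.1 CPM. Per kb, Slc2a3 and Slc2a6 made up 8.78% and 23.1% of the level of these transporters in untreated cells and 39.8% and 38.4% at day 6. The widely expressed Slc2a1 was not called (log2 fold change 0.32), though it was without untreated replicate 1 (0.50).

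Of 24 glycolysis genes 9 rose, 5 fell and 10 were not called (median 0.14), which under scaling by total counts turned to 4 higher and 10 lower. The largest rise was in Hk2, a hexokinase, from 105 and 125 to 234 and 223 CPM, while Hk1 was not called (−0.16). Pkm, pyruvate kinase, rose from 934 and 810 to 1495 and 1567 CPM, and Pfkfb4, which sets the level of an activator of phosphofructokinase, from 56.5 and 53.6 to 93.9 and 99.1 CPM. The lactate carriers went opposite ways. Slc16a1 (MCT1) fell from 80.5 and 83.7 to 19.4 and 16.3 CPM, and Slc16a3 (MCT4), the carrier of lactate-exporting cells, rose from 102 and 92.5 to 179 and 194 CPM. Slc16a3 held 67.1% of their summed level per kb in untreated cells and 94.7% at day 6.

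Phosphofructokinase shifted between its subunits. Pfkm, the muscle form, fell from 38.1 and 39.2 to 20.2 and 17.8 CPM and Pfkl, the liver form, had a log2 fold change of −0.61. Pfkp, the platelet form, was called higher (0.34), but its value was −0.10 under scaling by total counts. Lactate dehydrogenase stayed almost wholly Ldha, with 95.1% and 96.7% of the level per kb.

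Of 8 genes of the pentose phosphate pathway, which makes NADPH and ribose, 5 rose and 1 fell (median 0.36), or 1 and 2 under scaling by total counts. Taldo1, transaldolase, rose in both settings, from 459 and 398 to 1042 and 1063 CPM (log2 fold change 1.30, SE 0.09; adjusted p by edgeR = 2.30e-07). G6pdx, the entry enzyme, stood at 884 and 763 CPM and then at 1233 and 1312. Its log2 fold change of 0.63 lost its call under scaling by total counts.

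Glycogen genes were divided, with 6 of 15 higher and 5 lower (4 and 8 under scaling by total counts). Pygl, the liver form of glycogen phosphorylase, stood at 293 and 269 CPM in untreated cells and at 797 and 884 at day 6. Pygm, the muscle form, fell from 86.5 and 86.2 to 13.3 and 15.2 CPM (log2 fold change −2.60, SE 0.12; adjusted p by edgeR = 6.31e-09). Per kb the share of Pygl among the 3 phosphorylases went from 64.3% to 90.4%, and that of Pygm from 19.6% to 1.52%. Gyg, glycogenin, on which glycogen is built, rose from 109 and 98.7 to 285 and 298 CPM, and Ugp2, which makes the sugar donor, from 83.5 and 67.8 to 174 and 187 CPM.

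**Figure D2:**
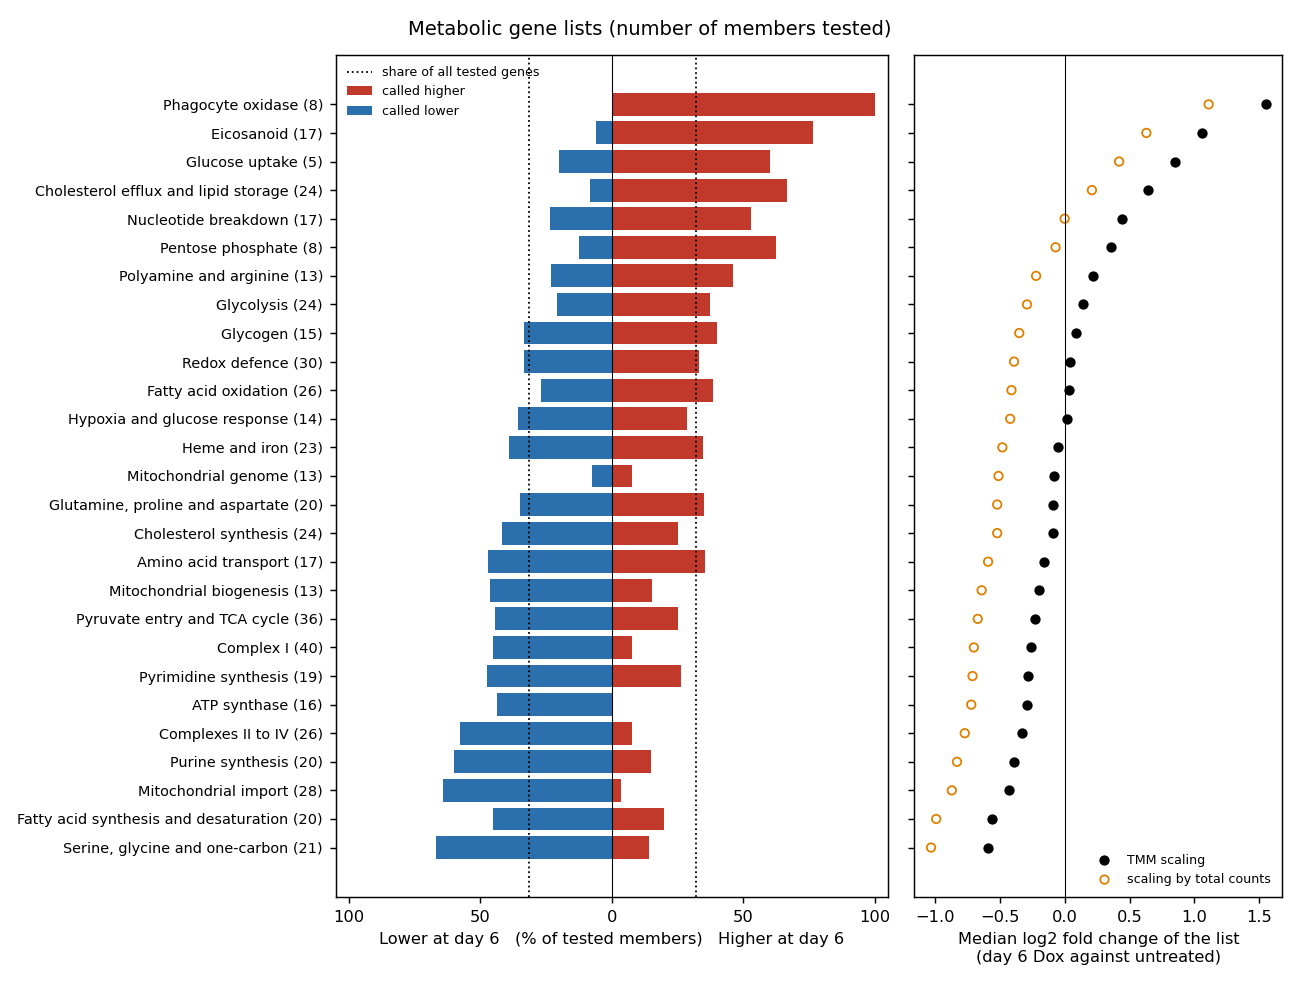
Left, percentage of tested members called higher (red) and lower (blue) at day 6 in 27 metabolic lists, with dotted lines at the shares of all tested genes (32.0% and 31.6%) and the number tested in brackets. Right, median log2 fold change of each list under TMM (black) and under scaling by total counts (open), where the lists of glycolysis, pentose phosphate, glycogen, fatty acid oxidation and polyamines turn to more lower than higher calls; phagocyte oxidase lies at the top and serine, glycine and one-carbon genes at the bottom under both.

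In lists of mitochondrial genes encoded in the nucleus more members fell than rose. Of 36 genes of pyruvate entry and the tricarboxylic acid (TCA) cycle 16 fell and 9 rose (median −0.23). Idh3a, the catalytic subunit of the NAD-linked isocitrate dehydrogenase, stood at 125 and 127 CPM in untreated cells and at 50.3 and 47.2 at day 6 (log2 fold change −1.37, SE 0.10; adjusted p by edgeR = 3.51e-07). Idh2, the mitochondrial NADP-linked form, fell from 102 and 101 to 55.6 and 54.3 CPM. Idh1, the cytosolic form, had a log2 fold change of 0.68, which lost its call under scaling by total counts (0.25). Per kb, Idh2 held 66.4% of the Idh1 and Idh2 level in untreated cells and 39.9% at day 6. Me2, a mitochondrial malic enzyme, and Pdk3, a kinase that shuts pyruvate dehydrogenase, rose, from 111 and 96.8 to 249 and 252 CPM and from 67.6 and 57.6 to 111 and 114 CPM.

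In the respiratory chain, 18 of 40 nuclear genes of complex I fell and 3 rose (median −0.26), 15 of 26 genes of complexes II to IV fell and 2 rose (−0.33), and 7 of 16 genes of the ATP synthase fell and none rose (−0.29). Cyc1, cytochrome c1, had one of the clearer falls, from 406 and 381 to 185 and 186 CPM (log2 fold change −1.08, SE 0.08; adjusted p by edgeR = 2.87e-07). Ndufa5 of complex I fell from 54.9 and 51.8 to 29.4 and 26.9 CPM, Cox8a of complex IV from 438 and 381 to 229 and 229 CPM, and Atp5b, the catalytic subunit of the synthase, from 1661 and 1526 to 1082 and 1062 CPM. Of the 13 protein-coding genes of mitochondrial DNA 11 were not called, 1 was higher and 1 lower, but none was higher and 9 were lower under scaling by total counts (median −0.51). Their summed level was 20029 and 19450 CPM in untreated cells and 19612 and 19766 CPM at day 6, so the groups overlapped.

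The supply of mitochondrial proteins fell in more of its members. Of 28 genes of mitochondrial import 18 fell and 1 rose (median −0.43). Hspa9, the import motor chaperone mortalin, stood at 307 and 326 CPM and then at 120 and 121 (log2 fold change −1.40, SE 0.09; adjusted p by edgeR = 1.16e-07), and the import pore gene Tomm40 at 83.4 and 86.6, then 38.2 and 40.5 CPM. Of 13 regulators of mitochondrial DNA and its expression 6 fell and 2 rose. Ppargc1b, a coactivator of mitochondrial biogenesis, fell from 16.5 and 25.4 to 5.29 and 4.21 CPM, and Twnk, the mitochondrial DNA helicase, from 24.6 and 30.8 to 10.9 and 10.7 CPM.

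Of 20 genes of fatty acid synthesis and desaturation 9 fell and 4 rose (median −0.56). Fads1, a desaturase, fell from 62.5 and 52.8 to 21.1 and 20.5 CPM, and Scd2, another, from 249 and 234 to 102 and 107 CPM. Acacb, an acetyl-CoA carboxylase whose product restrains fatty acid entry into mitochondria, fell from 10.8 and 12.9 to 2.25 and 1.95 CPM. Acsl4, which loads arachidonic acid onto coenzyme A, rose from 36.8 and 31.4 to 61.9 and 61.8 CPM.

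Fatty acid oxidation had 10 of 26 genes higher and 7 lower (5 and 12 under scaling by total counts), and the risers included the carnitine shuttle. Cpt1a, its rate-limiting enzyme, stood at 94.9 and 95.3 CPM in untreated cells and at 383 and 399 at day 6 (log2 fold change 2.04, SE 0.16; adjusted p by edgeR = 7.66e-07). Slc25a20, the carnitine carrier, rose from 28.4 and 28.3 to 85.6 and 87.5 CPM. Hadh, an enzyme of the oxidation cycle itself, fell from 133 and 121 to 66.2 and 69.8 CPM.

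Of 24 cholesterol synthesis genes 10 were lower and 6 higher (13 and 1 under scaling by total counts, but 6 and 7 without untreated replicate 1). Dhcr7, which makes cholesterol in the last step of 1 branch, fell from 68.8 and 60.5 to 28.0 and 25.6 CPM, and Fdps, a mevalonate pathway enzyme, rose from 16.0 and 16.2 to 53 and 55.4 CPM. Of 24 genes of cholesterol efflux and lipid storage 16 rose and 2 fell (median 0.64), or 8 and 6 under scaling by total counts (median 0.21). Lpcat2, which remodels phospholipids and makes platelet-activating factor, stood at 0.255 and 0.587 CPM and then at 24.7 and 29.5 (log2 fold change 5.96, SE 0.34; adjusted p by edgeR = 4.30e-08). Plin2, a coat protein of lipid droplets, rose from 156 ± 15.3 to 536 ± 23.2 CPM (mean ± SD, n = 2), and Npc2, which moves cholesterol out of lysosomes, from 285 and 254 to 943 and 894 CPM. Nr1h3, the sterol sensor LXR alpha, fell from 8 and 8.30 to 2.25 and 1.08 CPM.

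Eicosanoid genes, whose products are prostaglandins and leukotrienes, rose in 13 of 17 members and fell in 1 (median 1.06). Hpgd, which inactivates prostaglandins, stood at 0.341 and 0.419 CPM in untreated cells and at 62.8 and 57.9 at day 6 (log2 fold change 7.27, SE 0.20; adjusted p by edgeR = 2.81e-10). Cyp4f18, which inactivates leukotriene B4, rose from 5.93 ± 1.98 to 174 ± 3.74 CPM (mean ± SD, n = 2). Ptger2, a prostaglandin E2 receptor, rose from 1.19 and 1.68 to 21.8 and 20.5 CPM. Both the enzymes that make these lipids and those that remove them are in the list, so the count says nothing of their amount.

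Of 21 genes of serine, glycine and one-carbon metabolism 14 fell and 3 rose (median −0.59). Phgdh, the entry enzyme of serine synthesis, stood at 51.3 and 43.2 CPM in untreated cells and at 9.80 and 8.97 at day 6 (log2 fold change −2.33, SE 0.19; adjusted p by edgeR = 8.79e-07). Shmt1, which moves carbon units from serine to folate in the cytosol, fell from 74.9 and 65.7 to 17.8 and 17.3 CPM. Mthfd2, a mitochondrial folate enzyme, rose from 38.6 and 39.2 to 64.0 and 67.1 CPM, a call that did not hold with scaling by total counts.

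Of 20 purine synthesis genes 12 fell and 3 rose (median −0.39), and of 19 pyrimidine synthesis genes 9 fell and 5 rose (−0.28). Ak1, a cytosolic adenylate kinase, fell from 23.6 and 20.3 to 1.24 and 0.540 CPM (log2 fold change −4.62, SE 0.27; adjusted p by edgeR = 5.29e-08). Impdh1, which leads to guanine nucleotides, fell from 388 and 366 to 137 and 132 CPM, and Ppat, the committed step of purine synthesis, from 62.8 and 64.6 to 28.0 and 24.9 CPM. Cad, the enzyme that starts pyrimidine synthesis, fell from 148 and 140 to 47.4 and 49.3 CPM.

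The salvage enzymes Hprt and Dck went the other way, Hprt from 66.8 and 60.3 to 135 and 135 CPM and Dck from 105 and 87.8 to 287 and 287 CPM. Synthesis and salvage did not part cleanly. Uck2, also a salvage enzyme, fell (log2 fold change −1.29), and Adss, of purine synthesis, rose (1.10). Of 17 genes of nucleotide breakdown 9 rose and 4 fell (median 0.44), or 6 and 6 under scaling by total counts. Samhd1, which destroys deoxynucleotides in resting myeloid cells, stood at 97.2 and 88.0 CPM in untreated cells and at 1349 and 1375 at day 6 (log2 fold change 3.88, SE 0.13; adjusted p by edgeR = 9.75e-10). Ampd3, an AMP deaminase, rose from 21.4 and 27.8 to 111 and 127 CPM.

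Of 17 amino acid carriers 8 were lower and 6 higher, or 6 and 7 without untreated replicate 2. Slc7a5, a carrier of large neutral amino acids that growing cells rely on, fell from 121 and 129 to 50.8 and 51.2 CPM, and Slc7a6 from 78.6 and 89.2 to 28.2 and 27.7 CPM. Slc15a3, a lysosomal carrier of histidine and peptides, stood at 6.73 and 6.62 CPM before and averaged 159 CPM at day 6 (log2 fold change 4.58, SE 0.18; adjusted p by edgeR = 2.42e-09). Aldh18a1, which starts proline synthesis, fell from 77.0 and 72.4 to 28.6 and 30.8 CPM, and Glud1, glutamate dehydrogenase, rose from 131 and 126 to 346 and 343 CPM.

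In polyamine metabolism Srm and Odc1, enzymes of synthesis, fell, and Sat1 and Smox, enzymes of breakdown, rose. Srm, spermidine synthase, stood at 72.5 and 85.0 CPM in untreated cells and at 17.3 and 17.6 at day 6 (log2 fold change −2.17, SE 0.12; adjusted p by edgeR = 2.58e-08), and Odc1, the first enzyme, at 81.7 and 85.5, then 39.1 and 37.7 CPM. Sat1 and Smox, which break polyamines down, rose from 41.0 and 49.9 to 239 and 251 CPM and from 7.83 and 8.39 to 68.8 and 72.2 CPM. Arg2 and Azin1, on the side of arginine and of polyamine supply, rose as well (log2 fold changes 4.30 and 0.89), so genes of supply went both ways. Over the list of 13, 6 rose and 3 fell, or 4 and 6 under scaling by total counts.

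All 8 genes of the phagocyte oxidase rose under both scalings (median 1.55). Cybb, its catalytic subunit, stood at 755 and 613 CPM in untreated cells and at 4890 and 5128 at day 6 (log2 fold change 2.87, SE 0.12; adjusted p by edgeR = 2.96e-09). Cyba, its membrane partner, rose from 259 and 207 to 769 and 815 CPM, and the cytosolic subunit Ncf4 from 158 and 138 to 606 and 656 CPM. Of 30 redox defence genes 10 were higher and 10 lower, or 7 and 16 under scaling by total counts. Gstm1, a glutathione transferase, fell from 600 and 634 to 131 and 132 CPM, and the peroxide-removing Gpx1 and Prdx5 rose, from 1066 and 880 to 2128 and 2189 CPM and from 590 and 496 to 1356 and 1409 CPM.

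Of 23 heme and iron genes 8 were higher and 9 lower (6 and 13 under scaling by total counts, 10 and 8 without untreated replicate 1). Hmox1, which opens heme, rose from 15.6 and 15.8 to 104 and 104 CPM, and Slc11a1, the iron and manganese pump of phagosomes, from 19.6 and 21.7 to 99.1 and 92.2 CPM. Tfrc, the transferrin receptor, fell from 139 and 141 to 70.7 and 70.9 CPM. Of 14 genes of the hypoxia and glucose response 4 rose and 5 fell (3 and 7 under scaling by total counts). Egln3, an oxygen-sensing hydroxylase, stood at 283 and 286 CPM and then at 28.7 and 31.1 (log2 fold change −3.25, SE 0.08; adjusted p by edgeR = 2.41e-10), and Vhl, the ligase that removes hydroxylated HIF, rose from 22.7 and 21.1 to 89.3 and 87.9 CPM.

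**Figure D3:**
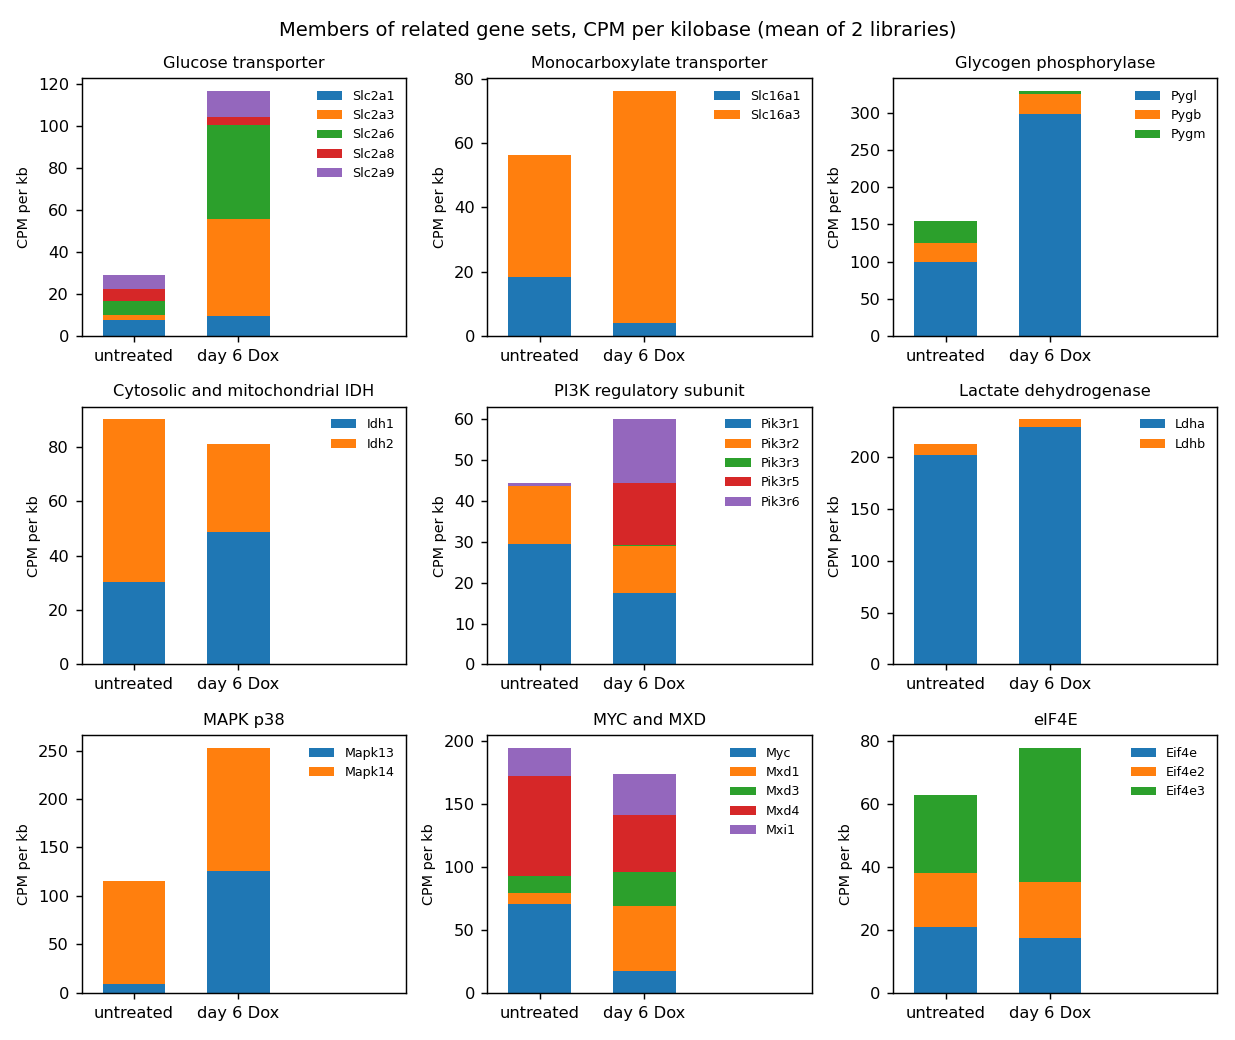
Stacked levels of related genes as CPM per kb, mean of the 2 libraries of each group, for 9 sets, with each colour a gene. Slc2a3 and Slc2a6, Slc16a3, Pygl, Pik3r5 and Pik3r6, Mapk13 and Mxd1 take larger shares of their sets at day 6, for example 94.7% for Slc16a3 against 67.1% in untreated cells.

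Receptor genes at the cell surface rose in most members. Of 30 receptors for growth factors and cytokines 21 rose and 5 fell (median 0.97). Il10ra, the receptor chain for interleukin-10, stood at 1.45 and 2.35 CPM in untreated cells and at 129 and 124 at day 6 (log2 fold change 6.05, SE 0.16; adjusted p by edgeR = 2.81e-10). Il13ra1, a chain of the interleukin-13 receptor, rose from 10.7 and 11.2 to 219 and 213 CPM, and Il1r2, a decoy receptor for interleukin-1, from 5.28 and 4.61 to 62.9 and 76.6 CPM. The signalling receptor Il1r1 fell, from 13.3 and 14.1 to 4.95 and 5.62 CPM. The receptors for granulocyte and for granulocyte-macrophage colony-stimulating factor, Csf3r and Csf2ra, had log2 fold changes of 2.00 and 2.11.

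Behind them, 14 of 23 genes of the JAK, STAT and SOCS group rose and 2 fell (median 0.55), or 10 and 7 under scaling by total counts. Jak2 stood at 81.0 and 82.7 CPM and then at 240 and 249. Socs3, an inhibitor that cytokines induce, fell from 47.3 and 40 to 20.9 and 20.2 CPM, and Socs6 rose from 13.1 and 13 to 41.4 and 36.7 CPM.

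The Src family kinases, which phosphorylate immune receptors, changed in make-up. Fgr stood at 3.24 and 2.10 CPM in untreated cells and at 98.4 and 113 at day 6 (log2 fold change 5.31, SE 0.20; adjusted p by edgeR = 1.93e-09). Lyn rose from 159 ± 9.67 to 569 ± 14.1 CPM (mean ± SD, n = 2), yet its share of the family's level per kb went from 82.5% to 51.4%. Fyn had a log2 fold change of −1.02. Syk, the kinase that reads activating receptors, had one of 1.39, and Ptk2, focal adhesion kinase, fell from 81.6 and 84.8 to 31.4 and 27.3 CPM.

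The receptors that these kinases serve rose on both the activating and the inhibitory side. Of 26 activating chains and receptors 23 rose and 1 fell (median 2.24), and of 29 inhibitory receptors and phosphatases 27 rose and 1 fell (median 2.44). Clec4a2, an inhibitory lectin, stood at 2.81 and 3.94 CPM in untreated cells and at 411 and 424 at day 6 (log2 fold change 6.94, SE 0.14; adjusted p by edgeR = 6.19e-11). Siglece, which binds sialic acid, rose from 0.341 and 0.252 to 30.4 and 40.4 CPM, and Lilrb4a from 0.426 and 0.671 to 35.5 and 45.3 CPM. On the activating side Sirpb1b rose from 0.341 and 0.0839 to 24.0 and 24.9 CPM. Reads of the Sirpb1, Clec4a and Lilrb families may be shared between copies, so single members are uncertain.

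The phosphoinositide 3-kinase (PI3K), AKT and mTOR list had 24 of 46 genes higher and 8 lower (median 0.27), or 10 and 20 under scaling by total counts, and its large changes lay in PI3K itself. Pik3r5, the regulatory subunit that ties PI3K gamma to G proteins, stood at 0.511 and 0.503 CPM in untreated cells and at 69.1 and 64.3 at day 6 (log2 fold change 7.01, SE 0.18; adjusted p by edgeR = 2.32e-10). Its relative Pik3r6 rose from 2.30 and 1.59 to 52.9 and 48.3 CPM. The catalytic subunits Pik3cd and Pik3cg, which leukocytes use, had log2 fold changes of 1.75 and 1.48. Pik3r1, the p85 subunit of receptor-coupled PI3K, had one of −0.76, and its share of the regulatory subunits per kb went from 66.7% to 29.1%. Akt1s1, an inhibitor of mTOR, fell from 28.4 and 28.9 to 14.4 and 12 CPM, and Ddit4, another brake on mTOR, from 48.4 and 42.5 to 13.4 and 16.9 CPM.

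Of 38 genes of the MAPK cascade 19 rose and 7 fell (10 and 16 under scaling by total counts). Rasgrp4, a Ras activator of myeloid cells, stood at 1.45 and 2.35 CPM and then at 64.5 and 72.3 (log2 fold change 5.16, SE 0.20; adjusted p by edgeR = 2.67e-09). Mapk13, p38 delta, rose from 14.9 and 11.9 to 160 and 188 CPM, and its share of the p38 level per kb went from 8.39% to 49.8%. The Sprouty genes Spry1 and Spry2, which restrain Ras signalling, fell from 4.09 and 6.71 to 0.901 and 1.19 CPM and from 24.8 and 21.1 to 7.32 and 8 CPM. Among dual specificity phosphatases, 5 of 13 rose and 5 fell (4 and 7 under scaling by total counts), with Dusp6, which switches ERK off, at 10 and 15.2, then 88.6 and 88.6 CPM.

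Immediate early genes, which stimulation or handling of cells can induce, had 10 of 17 members higher and 3 lower (median 0.68), or 7 and 6 under scaling by total counts. Atf3 stood at 0.255 and 0.922 CPM in untreated cells and at 21.4 and 21.2 at day 6, and Nr4a1 at 7.92 and 7.21, then 72.1 and 79.2 CPM. Egr1, named above, and Nr4a2 (14.5 and 15.3, then 4.39 and 5.30 CPM) fell, so the list did not move as a block. In the NF-kappaB list 23 of 31 genes rose and 2 fell (median 0.67), with the subunit Rel at 4.85 and 5.45, then 31.6 and 33.4 CPM.

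Receptors for microbes and for chemoattractants rose widely. Of 27 pattern recognition genes 25 rose and none fell (median 2.50). Tlr8, a sensor of RNA in endosomes, stood at 0.596 and 0.335 CPM in untreated cells and at 48.9 and 42.0 at day 6 (log2 fold change 6.57, SE 0.25; adjusted p by edgeR = 1.93e-09), and Tlr1, a partner of Tlr2, at 0.511 and 0.419, then 21.5 and 17.5 CPM. Of 36 receptors for chemokines and other attractants 29 rose and 4 fell (median 2.93). P2ry6, a nucleotide receptor, rose from 0.851 and 0.755 to 39.3 and 36.4 CPM, and S1pr3, a receptor for sphingosine phosphate, fell from 17.3 and 26.4 to 5.52 and 3.78 CPM. Gng2, a G protein subunit, rose from 1.87 and 0.755 to 51.6 and 44.8 CPM, and Gng11, of the same family, fell from 125 and 94.0 to 39.1 and 36.0 CPM.

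Of 26 chemokines and cytokines 21 rose and 2 fell (median 1.29). Ccl6 rose from 19.2 and 12.1 to 472 and 442 CPM, and Ccl2 went from 2 to 187 counts (ratio 122, 95% interval 33.3 to 1015). Vegfa, a growth factor for vessels, fell from a mean of 147 to 48.7 CPM. Il1rn, the antagonist of interleukin-1, stood at 7.75 and 5.95 CPM and then at 69.0 and 92.7, above Il1b, which reached 4.17 and 4.65 CPM from 0.255 and 0.419. Per kb these were 30.1 for Il1rn and 3.32 for Il1b at day 6.

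Of 28 integrin and adhesion genes 21 rose and 2 fell (median 1.45). Fyb, an adaptor that links receptors to integrins, rose from 0.596 and 0.503 to 44.9 and 43.3 CPM, and Itgb7 from 192 and 147 to 1102 and 1080 CPM.

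Of 36 interferon-stimulated genes 35 rose and none fell, with a median log2 fold change of 2.20, and 33 rose under scaling by total counts. Ifit3 stood at 2.04 and 1.93 CPM in untreated cells and at 92.3 and 93.5 at day 6 (log2 fold change 5.54, SE 0.26; adjusted p by edgeR = 9.39e-09). The antiviral gene Rsad2 rose from 5.96 and 4.95 to 158 and 183 CPM, and Oas3, which senses double-stranded RNA, from 32.3 and 33.1 to 460 and 506 CPM. All 9 genes of MHC class II antigen presentation rose (median 3.25), with Cd74, the invariant chain, at 5.62 and 3.77, then 242 and 248 CPM. Class I genes moved less, with 11 of 19 higher and 4 lower (3 and 7 under scaling by total counts). The class I light chain B2m stood at 2525 and 2314, then 3663 and 3791 CPM, and lost its call under scaling by total counts.

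**Figure D4:**
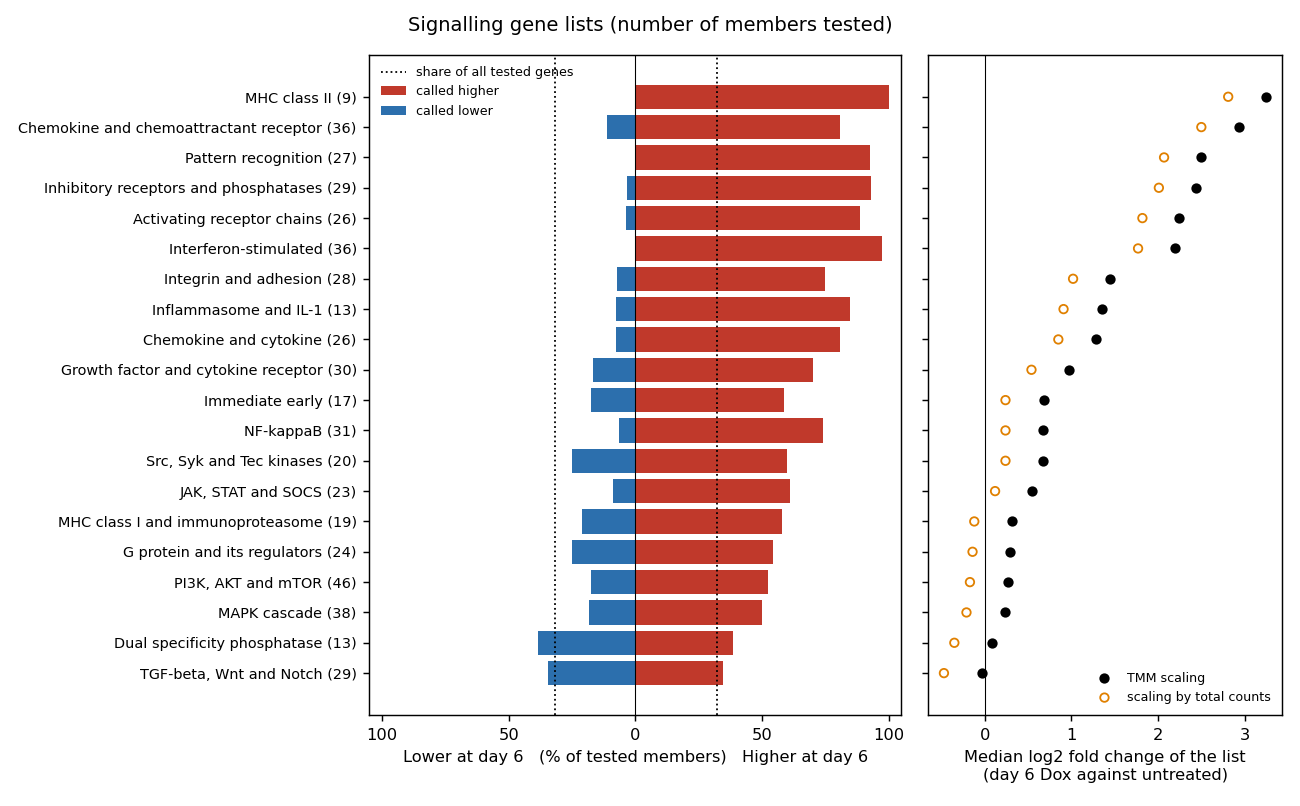
Left, percentage of tested members called higher (red) and lower (blue) at day 6 in 20 signalling lists, with dotted lines at the shares of all tested genes (32.0% and 31.6%). Right, median log2 fold change of each list under TMM (black) and under scaling by total counts (open); MHC class II, at 3.25, lies at the top, and the PI3K, MAPK and MHC class I lists turn to more lower than higher calls under the second scaling.

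Genes that build ribosomes fell almost as a whole list. Of 52 genes of ribosome biogenesis 47 fell and none rose, with a median log2 fold change of −0.69. Rrs1, an assembly factor of the large subunit, stood at 87.2 and 106 CPM in untreated cells and at 27.9 and 29.3 at day 6 (log2 fold change −1.76, SE 0.11; adjusted p by edgeR = 9.07e-08). Dkc1, which modifies ribosomal RNA and holds telomerase RNA, fell from 115 and 120 to 39.1 and 39.7 CPM. Gnl3, nucleostemin, fell from 42.7 and 74.0 to 13.4 and 12 CPM, and Rrp9 from 22.6 and 28.5 to 9.80 and 8.54 CPM. In all 4 genes the groups did not overlap, which held for 10123 of all 12330 tested genes (82.1%). The untreated libraries of Gnl3 lay far apart.

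The ribosomal proteins themselves fell by less. Of 85 cytosolic ribosomal protein genes 47 fell and 2 rose (median −0.32), and their summed level was 14612 and 13068 CPM in untreated cells and 11396 and 11177 at day 6. Many have near-identical copies in the genome, so single members are uncertain. Rpl12, among the members with the larger falls, stood at 7.07 and 11.2, then 3.94 and 4.54 CPM. The 2 members called higher, Rps9 and Rps6, were −0.14 and −0.07 under scaling by total counts. Of 77 mitochondrial ribosomal protein genes 37 fell and 5 rose (median −0.23), with Mrps5 at 18.6 and 18.4, then 9.01 and 8.65 CPM.

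Genes that act on transfer RNA were mostly lower or not called. Of 24 genes that modify it 19 fell and 2 rose (median −0.59). Pus7, a pseudouridine synthase, stood at 22.4 and 32.9 CPM in untreated cells and at 4.28 and 2.92 at day 6 (log2 fold change −2.94, SE 0.27; adjusted p by edgeR = 2.57e-06), and Qtrt1, which inserts queuosine, at 11.2 and 14.9, then 3.94 and 3.13 CPM. Of 17 mitochondrial aminoacyl-tRNA synthetases 10 fell and none rose, and of 22 genes of the cytosolic set 11 fell and 2 rose. Ears2 fell from 8.86 and 11.3 to 1.8 and 2.70 CPM, and Eprs, which charges 2 of the transfer RNAs, from 253 and 244 to 110 and 117 CPM. RNA polymerase III, which makes transfer RNA, was divided (8 of 21 lower, 5 higher), with Polr3g at 10.4 and 10.9, then 3.83 and 4.65 CPM.

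Of 15 elongation and release factors 12 fell and none rose (median −0.42). Eef1g stood at 89.1 and 75.4, then 43.2 and 46.7 CPM, and Abce1, which recycles ribosomes, at means of 176 and then 95.5 CPM. Of 53 initiation factor genes 22 fell and 8 rose (median −0.15). Eif4a1, the RNA helicase, had a log2 fold change of −0.58 and Eif4a2 fell from 121 and 156 to 77.1 and 86.0 CPM. Eif4e3, a variant cap-binding protein, rose by 0.78 on the log2 scale. It held 39.5% of the level of the 3 cap-binding genes per kb in untreated cells and 54.7% at day 6. The repressors of cap binding, Eif4ebp1 and Eif4ebp2, were not called (0.16 and 0.05).

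The kinases that slow initiation by phosphorylating eIF2 rose in 3 of 4 cases. Eif2ak1 stood at means of 82.2 CPM in untreated cells and 162 CPM at day 6 (log2 fold change 0.98, SE 0.07; adjusted p by edgeR = 3.39e-07), and Eif2ak3 at 41.4 and 51.6, then 87.9 and 93.3 CPM. Eif2ak2, which double-stranded RNA activates, had a log2 fold change of 0.57, not called under scaling by total counts, and Eif2ak4, the sensor of uncharged transfer RNA, one of −0.71. Of 17 genes of the integrated stress response 11 rose and 4 fell (3 and 4 under scaling by total counts). Atf5, one of its targets, fell from 45.5 and 44.4 to 19.0 and 18.9 CPM.

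**Figure D5:**
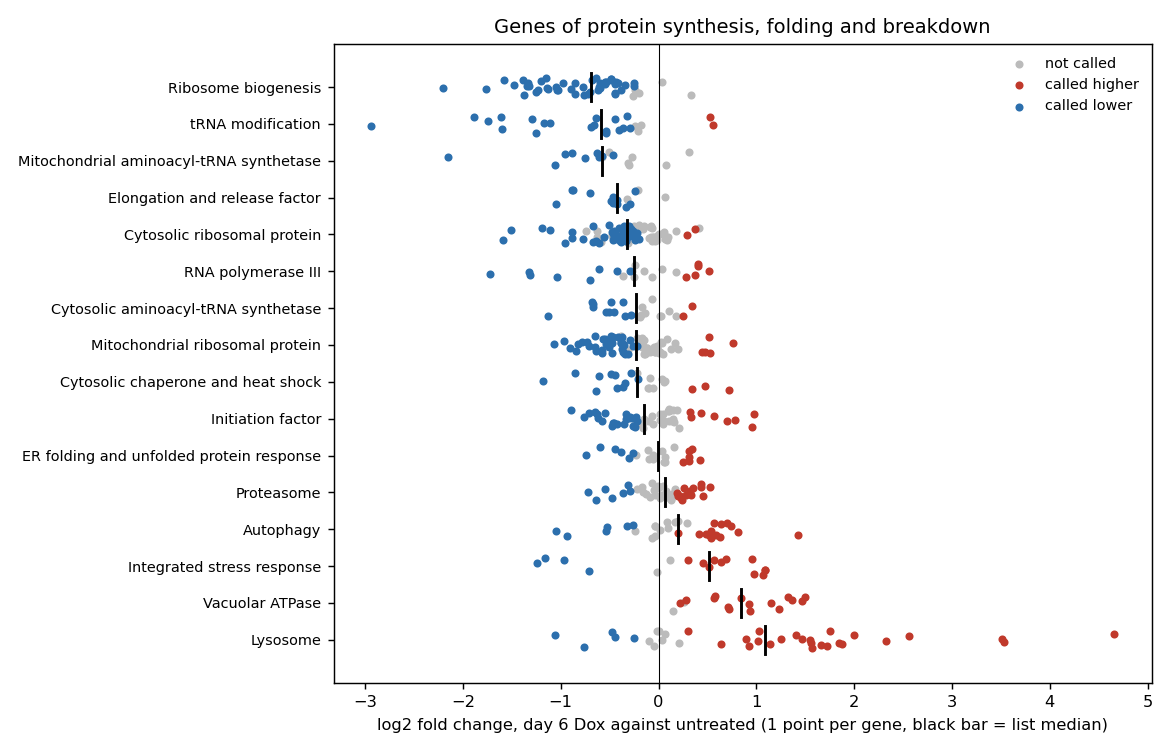
log2 fold change of each tested member (points, red called higher, blue called lower, grey not called) of 16 lists of protein synthesis, folding and breakdown, with a black bar at the list median. Points of ribosome biogenesis lie to the left (median −0.69) and those of the lysosome to the right (1.08); under scaling by total counts the medians of all lists shift left, and proteasome, autophagy and integrated stress response lists turn to more lower than higher calls.

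Counts for protein folding and the proteasome depended on the scaling. Of 22 genes of endoplasmic reticulum folding 6 rose and 6 fell (median −0.01), or none and 15 under scaling by total counts (median −0.45). Of 42 proteasome genes 14 rose, 7 fell and 21 were not called (median 0.07), with none higher and 23 lower under scaling by total counts and 6 higher and 9 lower without untreated replicate 2. Of 22 cytosolic chaperones 11 fell and 3 rose. Hsph1, a heat shock chaperone, fell from 52.5 and 70.9 to 25 and 29.3 CPM, and Cct3, a subunit of the folding chamber for actin and tubulin, from 196 and 195 to 110 and 107 CPM.

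Lysosomal genes rose instead. Of 36 tested 24 rose and 5 fell (median 1.08), and of 17 subunits of the vacuolar ATPase, the pump that acidifies lysosomes, 15 rose and none fell (0.84). Ctss, whose promoter is printed above, stood at 35.5 and 29.0 CPM in untreated cells and at 840 and 793 at day 6 (log2 fold change 4.66, SE 0.17; adjusted p by edgeR = 1.93e-09). Lgmn, an asparagine-specific protease, rose from 13.1 and 12.9 to 158 and 142 CPM, and Psap, precursor of lipid-degrading cofactors, from 1458 and 1225 to 8107 and 7743 CPM. Atp6v0c of the pump rose from 41.2 and 37.7 to 108 and 111 CPM. Autophagy genes had 14 of 31 members higher and 6 lower, or 2 and 14 under scaling by total counts.

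Regulators of growth moved in opposite ways. Myc, which drives ribosome production, stood at 110 and 230 CPM in untreated cells and at 43.7 and 40.2 at day 6 (log2 fold change −2.02, SE 0.33; adjusted p by edgeR = 0.000240). On the CPM scale, though not on the log2 scale, the 2 untreated libraries lay further apart than the lower of them lay from day 6. Mxd1, an antagonist of MYC, rose from 42.9 and 38.7 to 216 and 264 CPM. Myc held 36.4% of the level per kb of Myc and the MXD genes in untreated cells and 10% at day 6, and Mxd1 went from 4.49% to 29.6%. The MXD genes did not move together. Mxd4, the largest of the set in untreated cells, was called lower (log2 fold change −0.81), and its share went from 41.1% to 26.2%. Mxd3 and Mxi1 were called higher, Mxi1 not under scaling by total counts. In the G1 list 15 of 28 genes rose and 4 fell (9 and 9 under scaling by total counts). Cdk4, a partner of D cyclins, stood at 226 and 225, then 120 and 118 CPM. The antiproliferative Btg2 stood at 14.3 and 22.1, then 105 and 115 CPM. The D cyclins Ccnd3 and Ccnd1 rose (log2 fold changes 0.93 and 1.81), and Ccnd2 was not called. Ccnd3 held 98.8% of the D cyclin level per kb in untreated cells and 98.1% at day 6.

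Genes of division were described by phase. Of 42 genes of S phase 30 were not called, 5 rose and 7 fell (median −0.06), whereas under scaling by total counts none was higher and 34 were lower (median −0.50). Of 42 genes of G2 and M phase 33 rose and none fell (median 0.42), but under scaling by total counts 3 rose and 7 fell (median −0.01). Kif23, a motor of cell separation, stood at 47.6 and 40.2 CPM in untreated cells and at 101 and 102 at day 6 (log2 fold change 1.21, SE 0.10; adjusted p by edgeR = 1.14e-06).

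In the BCL2 family and its caspases 16 of 26 genes rose and 4 fell (median 0.62), on both sides of survival. The survival gene Mcl1 had a log2 fold change of 1.47, whereas Bcl2 and Bcl2l2 had −0.85 and −1.02. The death-promoting Pmaip1 rose from 5.19 and 5.37 to 34.5 and 32.4 CPM, and Bmf from 48.1 and 37.7 to 140 and 122 CPM. Of 22 genes that p53 drives in cells that have it, 9 rose and 4 fell (5 and 9 under scaling by total counts). Cdkn1a, the cell cycle inhibitor p21, fell from 139 and 156 to 80.3 and 80.8 CPM, and Gdf15 went from 144 counts to 1 (ratio 110, 95% interval 19.5 to 4387).

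Further lists of nuclear genes were mixed or lower. Of 30 splicing genes 17 fell and 2 rose (median −0.28), with the tissue-specific regulator Rbfox2 at 46.7 and 56.0, then 4.50 and 5.08 CPM (log2 fold change −3.42, SE 0.15; adjusted p by edgeR = 6.48e-09). Of 39 chromatin regulators 9 rose and 13 fell (3 and 26 under scaling by total counts), with Kat2a, a histone acetyltransferase, at 93.0 and 94.4, then 38.8 and 34.7 CPM. DNA repair genes had 15 of 34 members lower and 5 higher, with Ung, which removes uracil from DNA, at 29.2 and 32.5, then 11.1 and 10.9 CPM.

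To see which of these features set day 6 apart from the group most like it, day 6 was compared with day 4, whose cells were sorted for intermediate GFP. Of the 12330 genes 3689 (29.9%) were called, 1961 (15.9%) higher and 1728 (14.0%) lower at day 6 (edgeR quasi-likelihood test, adjusted p under 0.05), with a median of −0.02. The counts rest on the libraries used: without day 4 replicate 1 there were 1006 higher and 725 lower genes, without day 6 replicate 1 1254 and 878, and without day 6 replicate 2 1016 and 710. Under scaling by total counts the median was −0.20, with 881 genes higher and 2646 lower. List counts against day 4 were not computed under that scaling, so whether any list turns there was not tested. This comparison shares the day 6 libraries with the comparison above.

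The 5 leading risers against day 4 included granule genes. Asprv1 stood at a mean of 6.12 CPM at day 4 and at 62.6 and 94.3 CPM in the day 6 libraries (log2 fold change 3.69, SE 0.24; adjusted p by edgeR = 6.96e-06). Ltf, Chil1, Mmp9 and Plbd1, a lipase of granules, followed with 3.50, 3.37, 3.25 and 3.21. Of the secondary and tertiary granule list 14 of 16 were higher at day 6 than at day 4 (median 1.83), and of the mature neutrophil list 18 of 20 (median 1.97). For monocyte and macrophage genes the count was 8 of 18, with 1 lower (median 0.60), and Csf1r, at a mean of 918 CPM at day 4 and 979 at day 6, was not called (0.09). Spi1 itself differed by 1.18, from 98.4 to 223 CPM as means.

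Among pathways, interferon-stimulated genes were higher in 30 of 36 members (median 0.89), and ribosome biogenesis genes lower in 35 of 52 with none higher (median −0.40). Cholesterol synthesis, divided against untreated cells, was lower than at day 4 in 15 of 24 members with none higher (median −0.44). Sqle, which makes the sterol precursor squalene epoxide, stood at means of 18.7 CPM in untreated cells, 26.3 at day 4 and 9.97 at day 6. S phase genes were lower in 19 of 42 members with none higher, whereas of G2 and M phase genes 1 of 42 was called. Of 36 lysosomal genes 10 were higher and 6 lower than at day 4 (median 0.02), and Psap stood at means of 7694 CPM at day 4 and 7925 CPM at day 6.

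Slc2a3, at 28.0 CPM at day 4 and 184 at day 6, and Pygl, at 357 and 841, belonged to the part of glucose metabolism that differed between these days, with log2 fold changes of 2.72 and 1.24. Slc2a6, at 89.6 and 95.9 CPM, was not called. The leading genes lower at day 6 than at day 4 were Serpinh1 (2 counts at day 6), Igfbp7 (log2 fold change −4.14), Nwd1 (−3.34), Tpm2 (2 counts at day 6) and Heph (−2.94), all of which were among the leading fallers against untreated cells.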

How the data were processed

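Gene expression was measured by RNA sequencing of sorted cells. The authors deposited raw counts per Entrez gene for each library, and the submitters' processing notes name limma 3.22.0, edgeR 3.8.2, featureCounts, CASAVA 1.8.2 and the genome build mm10. Whether counting used strand is not stated in the sources used here; overlapping and antisense genes cannot be told apart. Of 12830 gene identifiers 12555 were matched to symbols, and the rest held 2.24% of counts.

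From the counts, 12330 genes that passed filterByExpr (500 removed, with 0.0267% of counts) were fitted with edgeR 4.0.16 in R 4.3.3 (TMM, group means over all 8 libraries, glmQLFit and glmQLFTest), with Benjamini-Hochberg adjustment over all genes and a threshold of 0.05. The procedure was also run on simulated counts in which few genes changed, so that run cannot check the choice of scaling. The spread was estimated over all 8 libraries together. Day 2 replicate 1 stood out among them, with 20.5% of its counts in its 10 most abundant genes against 6.16% in day 2 replicate 2. Levels per kb use the deposited gene length, one value per gene. Genes with no counts in a group are given as a bound, taking 3 counts per group as the limit of a 0, and those with 1 to 3 counts as a ratio with a 95% exact interval, both for counting error only. At the depths given above, genes of low level are measured least precisely.

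The members and gene lists were chosen with earlier results of these data known. Named genes were Spi1 and Trp53, the 10 leading genes in each direction (5 for day 6 against day 4), the members of each list with the largest changes (up to 4 with and 2 against its main direction), and the members of the isoform sets. Bcl2, Cebpa, Csf2ra, Csf3r, Fcgr3, Gfi1, Mcl1, Mef2c, S100a8, Syk, Tlr2 and Pecam1 fell outside this rule and were chosen after their values were seen. Replicate numbers did not pair the libraries. Alternatives were other scalings, no filter, DESeq2 1.42.0, fewer libraries, a minimum change, a replicate block and leaving out each library. Some results are not reported here.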

Additional observations from a re-analysis of the deposited data

How the results depend on the processing

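For day 6 against untreated, scaling by total counts gave 2078 genes higher and 6647 lower, and testing for a change of more than 1.5-fold 2062 and 1612. Leaving out each library gave 3399 to 3992 higher and 3006 to 3961 lower genes. For day 6 against day 4, scaling by total counts gave 881 and 2646, the 1.5-fold test 342 and 212, DESeq2 1089 lower genes, and leaving out each library 1006 to 2222 higher and 710 to 1971 lower. The cause of these differences beyond the fewer samples or the stricter test was not tested. A fit of the day 4 and day 6 libraries alone, chosen after seeing the data, gave 2423 and 2131, and the fit of untreated and day 6 libraries alone cannot give this comparison. The replicate numbers did not pair the libraries (correlation of deviations −0.0255 for untreated and day 6, 0.0616 for day 4 and day 6). With the replicate number as a block there were 3910 higher and 3808 lower genes against untreated, and 1873 and 1620 against day 4.

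Of 511 named genes 444 kept their direction and side of the threshold under scaling by total counts, 477 under DESeq2, 390 under the 1.5-fold test, 505 with the block and 473 to 508 without 1 library. Under scaling by total counts 21 turned from higher to a value below 0, none of them called there: Atf6 (−0.02), COX3 (−0.08), Dnajb11 (−0.12), Gabpa (−0.19), Gtf3c2 (−0.03), Hk3 (−0.08), Hsp90b1 (−0.10), Mapk14 (−0.17), Ndufb7 (−0.20), Ndufs8 (−0.11), Pfkp (−0.10), Pomp (−0.01), Qars (−0.09), Rps6 (−0.07), Rps9 (−0.14), Sdf2l1 (−0.12), Sdhb (−0.18), Sf3b1 (−0.07), Tomm22 (−0.22), Uqcrc2 (−0.19) and Wars (−0.18) on the log2 scale. Of 80 lists with a majority direction, 15 turned from higher to lower under that scaling and none the other way. The majority also turned in 2 lists under the 1.5-fold test (MHC class I to 2 higher and 3 lower, initiation factors to 3 and 1), in 2 without untreated replicate 1 (cholesterol synthesis, heme and iron) and in 3 without untreated replicate 2 (amino acid carriers, proteasome, B cell), and in none under the other settings run. Depth limits genes with few counts most.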
